A study of Mus musculus with 38 samples.

Results

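Papillary thyroid carcinomas (PTC) of 10 transgenic mice were compared with benign hyperplastic lesions (BHL) of 4 mice in which no *BRAF*V600E RNA was found. These 14 of the 38 arrayed mice were taken by their lesion and *BRAF* labels alone, and no measured value entered the choice. The contrast asks which transcripts set a malignant growth with the oncogene apart from a benign enlargement of the thyroid without it. RNA of each thyroid was measured on a GeneChip Mouse Gene 1.0 ST array, with 1 array per mouse, and the remaining 24 mice had borderline lesions, BHL with transgene RNA or asymptomatic thyroids (AT).

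PTC mice were FVB/N mice of the lines tg2 and tg3, each line from its own founder, which carried a human *BRAF*V600E cDNA behind the bovine thyroglobulin promoter, a promoter active in thyroid follicular cells. Transgene RNA was present in all of them, 8 were females and 2 males, and the labelled age was 6 to 21 months (median 11). *BRAF*(-) BHL came from 3 females and 1 male of the same strain, aged 6 to 24 months (median 11.5). By the study's cohort description they were genotyped as non-transgenic except for a tg1 mouse that carried the transgene without its RNA. The study places this mouse in its oldest age class, and by label the oldest of the 4 is M_764, at 24 months. The labelled ages of the 4, at 6, 11, 12 and 24 months, match the study's age classes for this group, by which M_764 would be the tg1 mouse. Labelled ages do not match those classes in PTC, so the identity of the tg1 mouse was not taken as settled. Malignancy, transgene RNA and, in 3 of the 4 comparator mice, transgene DNA therefore differed together and cannot be told apart in this contrast. Founder line was not balanced either, since the study lists the comparators under the lines tg1, tg2 and tg3. RNA was taken from a piece of each gland with tissue of both lobes, and histology was read on the rest, so the tissue on the array was not itself examined.

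Follicular cells of the thyroid trap iodide, couple it to thyroglobulin and release thyroid hormone under control of thyrotropin. The V600E change keeps the BRAF kinase active, and BRAF drives the MAPK cascade through MEK and ERK, whose output includes transcription factors and the phosphatases and Sprouty-family proteins that restrain it. Papillary carcinomas with this mutation are known for strong MAPK output and for low expression of the iodide-handling genes. The transcription factor NKX2-1 works both in thyroid follicular cells and in the lung, where it drives the surfactant protein genes.

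Thyroid identity was plain in both groups. Thyroglobulin (*Tg*), the scaffold on which hormone is made, gave a log2 signal of 13.58 ± 0.07 in PTC (SD, n = 10) and 13.67 ± 0.04 in *BRAF*(-) BHL (SD, n = 4), near the highest value of the table. *Pax8*, a transcription factor of follicular cells, gave 11.28 ± 0.15 and 11.44 ± 0.27, respectively. The probe set of *Braf* read 9.50, 9.88 and 10.33 in the lowest, median and highest PTC and 8.92, 8.95, 9.21 and 9.32 in M_946, M_930, M_701 and M_764. All PTC therefore lay above all *BRAF*(-) BHL, with a difference of 0.77 (SE 0.14), although the flat filter described below kept this probe set out of the test. A signal of the human transgene on the mouse probes cannot be told apart from mouse *Braf*.

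Arrays were alike in level, with medians of 6.04 to 6.16, and the correlation between 2 arrays of the same group was 0.970 to 0.990 in PTC and 0.970 to 0.983 in *BRAF*(-) BHL. Some glands had high levels of genes that mark other tissues. *BRAF*(-) BHL mouse M_946 stood apart with genes of developing T cells: *Rag1* read 9.25 against 3.97 to 4.75 in the other 37 mice, *Dntt* 9.07 against 3.75 to 4.56, and the mean over 8 thymocyte genes 8.61 against 4.38 to 4.98. *Ptcra*, also among these 8, was not raised, with 5.70 in M_946 against 5.22 to 6.05 in the others. M_764 had a mean of 9.39 over skeletal muscle genes against 5.79 to 5.94 in the other *BRAF*(-) BHL. PTC mouse M_1002 was the highest PTC for airway (8.81), squamous (7.46) and muscle genes (8.61). Several results that rest on these mice are given with and without them.

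Expression differed widely. A linear model of 6 groups and sex was fitted with limma to 4388 probe sets. These had passed a flat filter, which asks that 20% or more of the 38 mice lie 1.5-fold or further away from the median of the probe set. A probe set or gene was called different at a Benjamini-Hochberg adjusted p under 0.05. In PTC, 1443 probe sets differed from *BRAF*(-) BHL (32.9% of those tested), of which 498 were lower (11.3%) and all others higher (21.5%), and 729 differed at least 2-fold. With 1 probe set per named gene, 56.3% of 1570 genes differed, 513 higher (32.7%) and 371 lower (23.6%), and these are the shares against which the gene lists below are to be read. Another 458 of the probe sets that differed carry no single gene symbol, and 392 of these were higher in PTC. The filter favours genes that differ between large groups of the 38 mice, so the counts without it are given too: 4087 of all 35556 probe sets, 2142 higher and 1945 lower.

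Lung surfactant genes were among the greatest increases. *Sftpb*, which encodes the surfactant protein B that spreads surfactant in the air sacs, read 5.65, 5.73, 5.85 and 6.05 in *BRAF*(-) BHL mice M_764, M_701, M_946 and M_930, and 12.21, 12.67 and 12.97 in the lowest, median and highest PTC. The groups did not overlap, with means of 5.82 ± 0.17 (SD, n = 4) and 12.66 ± 0.21 (SD, n = 10). The sex-adjusted log2 difference was 6.84 (SE 0.29, limma adjusted p = 1.787e-20), or 114-fold, and it stayed between 6.77 and 6.91 when each mouse was left out in turn. In a bulk gland, more cells that express a gene and more RNA per cell cannot be told apart, here or in any result that follows.

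*Sftpa1*, the collectin surfactant protein A, read 5.49, 5.59, 5.76 and 6.29 in M_701, M_946, M_764 and M_930 and 10.17, 10.81 and 13.02 in PTC. Its difference was 5.45 (SE 0.42, limma adjusted p = 1.739e-12). Surfactant protein D (*Sftpd*), the second collectin of the family, rose by 4.40 (SE 0.40), with 8.96 as the lowest PTC and 6.61 as the highest *BRAF*(-) BHL. *Napsa*, the protease that processes pro-surfactant protein B, was already abundant in BHL, with a mean of 10.17 ± 0.43, and was 11.90 ± 0.29 in PTC, a difference of 1.72 (SE 0.23). Of 8 surfactant genes measured, 4 passed the filter and all 4 were higher, the same 4 as without the filter, while the median over the 8 was 1.07. *Sftpc*, which marks alveolar type II cells of the lung, did not pass the filter, with a difference of -0.38. *Nkx2-1* itself read 9.32, 10.13 and 10.26 in PTC and 9.28, 9.61, 9.69 and 9.82 in M_946, M_764, M_930 and M_701. It did not pass the filter, and its difference of 0.44 (SE 0.14) had an adjusted p of 0.04189 in the limma fit without it.

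The sequences before the start sites of the surfactant genes with the greatest differences are shown beside that of *Slc5a8*, a thyroid transporter gene that fell, because NKX2-1 sites hold the core TCAAG. RefSeq gives them on GRCm38.p6, each window covering 250 bases upstream of the start and printed 5′ to 3′ on the gene's strand, with every match to TCAAG on either strand (CTTGA on the opposite one) in capitals. All 3 genes are on the plus strand, at chr6:72304360-72304609, chr14:41131538-41131787 and chr10:88885742-88885991, respectively.
*Sftpb*: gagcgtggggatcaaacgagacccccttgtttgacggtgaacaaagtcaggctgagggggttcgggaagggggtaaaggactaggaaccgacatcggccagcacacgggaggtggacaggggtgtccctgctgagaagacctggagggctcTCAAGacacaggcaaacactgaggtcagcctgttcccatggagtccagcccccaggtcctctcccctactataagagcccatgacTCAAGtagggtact
*Sftpa1*: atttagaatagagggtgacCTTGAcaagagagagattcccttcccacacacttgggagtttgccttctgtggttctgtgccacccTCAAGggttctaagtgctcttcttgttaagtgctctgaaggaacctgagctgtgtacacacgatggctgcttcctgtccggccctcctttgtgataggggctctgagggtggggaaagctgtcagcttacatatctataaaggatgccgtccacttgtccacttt
*Slc5a8*: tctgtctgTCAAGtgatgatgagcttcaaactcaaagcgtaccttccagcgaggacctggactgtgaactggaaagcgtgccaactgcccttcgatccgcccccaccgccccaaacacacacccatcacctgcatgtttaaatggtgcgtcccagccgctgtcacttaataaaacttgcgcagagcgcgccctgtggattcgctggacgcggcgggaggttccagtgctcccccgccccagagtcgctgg
The letters occur at 2 places before *Sftpb*, at 2 before *Sftpa1*, of which 1 is on the opposite strand, and at 1 before *Slc5a8*. Of 32536 distinct mouse windows of this length, 35.8% hold them, and the match is a description of these letters only.

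Beside the surfactant genes, 17 of the 20 genes with the greatest increase belonged to other families, and their differences ran from 3.43 to 6.00. *Chil1*, a secreted chitinase-like glycoprotein, read 4.78, 5.44, 5.47 and 6.29 in M_701, M_946, M_764 and M_930 and 10.43, 11.54 and 12.34 in PTC (difference 6.00, SE 0.42). *Lcn2*, which encodes lipocalin 2, an iron-siderophore binding protein, read 5.72, 5.76, 5.92 and 6.39 in M_930, M_701, M_946 and M_764 and 10.42, 11.19 and 12.57 in PTC (difference 5.41, SE 0.40). Neither gene overlapped between the groups. Signalling genes in the set were *Gng4*, a G protein gamma subunit (5.20), *Tacr3*, the neurokinin B receptor (3.86), *Dlk1*, a Notch-ligand-like membrane protein (3.86), and *Vash2*, a vasohibin (3.94). Enzymes of lipids and glycans were *St8sia6*, a sialyltransferase (4.12), the lipases *Lipi* (3.92) and *Lipk* (3.69), and *Sptlc3*, a subunit of the enzyme that starts sphingolipid synthesis (3.80). *Krt20*, an intermediate filament of intestinal epithelium, rose by 3.75 (SE 0.49). *Elapor2* (4.26), *Cntn3*, a contactin cell adhesion protein (4.11), *Atp13a4* (3.61), *Lratd1* (3.61), *Ankrd22* (3.60) and *Lrrn1* (3.43) completed the set.

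In 19 of these 20 genes every PTC lay above every *BRAF*(-) BHL, which holds for 16.9% of all named genes and 9.39% of all probe sets tested. The exception was *Lrrn1*, a leucine-rich repeat membrane protein, which read 4.80, 5.21 and 5.32 in M_701, M_930 and M_764 but 10.13 in M_946, within the PTC range of 9.10 to 10.30. Without M_946 its difference was 4.68 (SE 0.62). All 20 passed the threshold in females alone, with age in the model and whichever single mouse was left out. The 20 were chosen by the size of this same difference, so the lack of overlap and these calls follow largely from the choice.

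**Figure D1:**
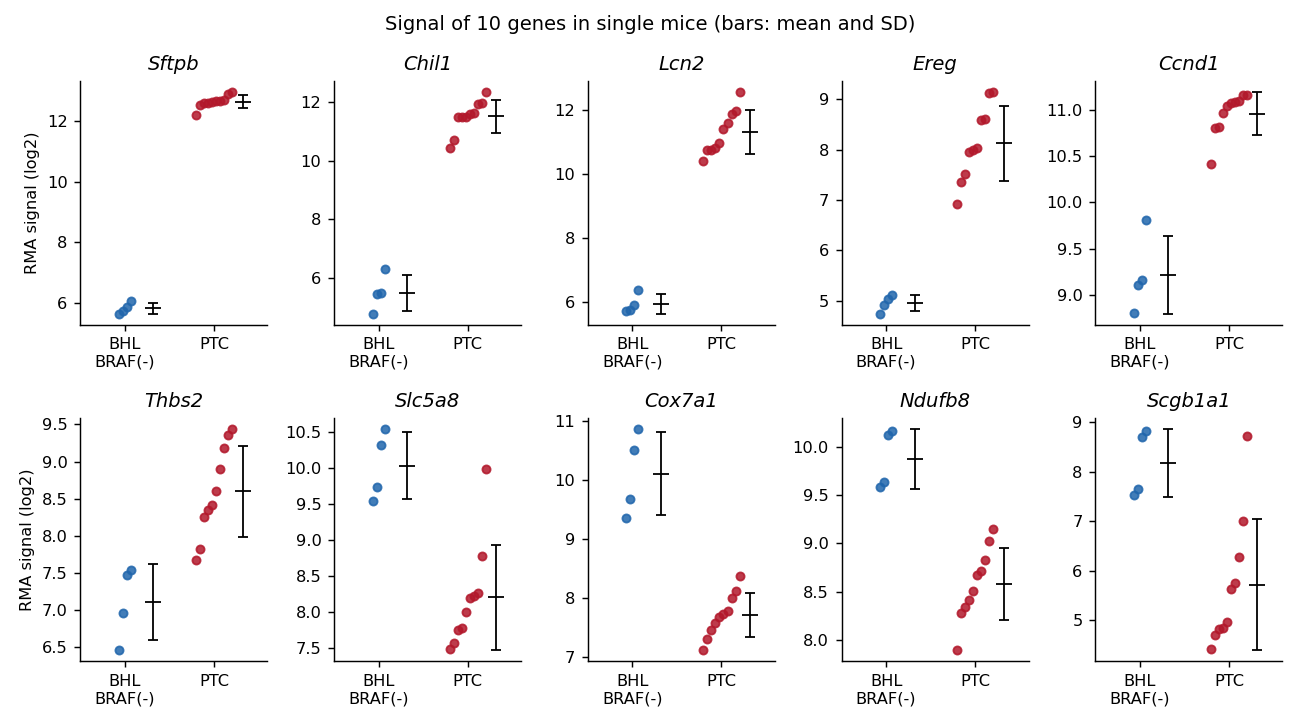
Log2 RMA signal of 10 genes (y axes, each on its own range) in single mice of both groups (x axes), with bars for mean and SD. *Sftpb*, *Chil1*, *Lcn2*, *Ereg*, *Ccnd1* and *Thbs2* separate the 10 PTC from the 4 *BRAF*(-) BHL upwards, *Cox7a1* and *Ndufb8* downwards, and in *Slc5a8* and *Scgb1a1* single PTC reach the BHL range.

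Genes of MAPK output were higher in PTC. Of 19 measured, 10 passed the filter and 8 of these rose, none fell, and the 8 did not overlap between groups; 10 rose without the filter. The median over the 19 measured was 0.50, against -9.1e-05 over all probe sets measured and 0.27 over those that passed the filter. Cyclin D1 (*Ccnd1*), which carries cells from G1 into S phase, read 8.81, 9.11, 9.16 and 9.81 in M_946, M_930, M_701 and M_764 and 10.41, 11.05 and 11.16 in PTC (difference 1.73, SE 0.29, limma adjusted p = 2.13e-05). The ETS factor *Etv1* rose by 1.62 (SE 0.24) and *Egr1*, an early growth response factor, by 1.37 (SE 0.30). The ERK-pathway inhibitor *Spred1* rose by 1.25 (SE 0.24), the ERK phosphatases *Dusp5* and *Dusp6* by 1.13 and 0.77, and the ETS factor *Etv4* by 1.16. *Spry1* and *Myc* did not pass the filter, with differences of 0.06 and 0.23. A separate list of immediate early genes leaves out *Egr1*, which is itself such a gene and is counted above. Of its 10 genes measured, 5 passed the filter and only the nuclear receptor *Nr4a2* rose, by 1.47 (SE 0.25). *Fosb* differed by -0.57 (limma adjusted p = 0.1507).

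Of 12 growth factor receptors and ligands measured, 7 passed the filter, of which 5 rose and 2 fell. Epiregulin (*Ereg*), an EGF receptor ligand, read 4.74, 4.91, 5.04 and 5.11 in M_946, M_701, M_930 and M_764 and 6.92, 8.02 and 9.14 in PTC, a difference of 3.15 (SE 0.45, limma adjusted p = 1.678e-06). *Hbegf*, heparin-binding EGF-like growth factor, rose by 1.18 (SE 0.28), and the receptors *Erbb3*, *Erbb4* and *Met* by 0.93, 0.84 and 0.84. *Egfr* itself went the other way without passing the filter: its difference was -0.72 (SE 0.17) and the groups did not overlap. The fibroblast growth factor receptors *Fgfr3* and *Fgfr2* fell by 0.79 and 0.55. *Erbb4* lost its call without M_764 or M_930, and of the 2 that fell none was called without M_930 and 1 without M_946.

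Of 15 thyroid differentiation genes measured, with a median difference of -0.24, 6 passed the filter and 5 of these fell, with 3 calls without M_764. Without the filter 6 fell and 2 rose. *Slc5a8*, a monocarboxylate transporter of the apical membrane, read 9.55, 9.74, 10.32 and 10.55 in M_946, M_930, M_764 and M_701 and 7.49, 8.10 and 9.99 in PTC, a drop of 1.78 (SE 0.43, limma adjusted p = 0.001655). *Slc5a5*, the sodium-iodide symporter, read 10.54, 10.72, 11.20 and 11.59 in M_946, M_930, M_764 and M_701 and 7.87, 9.60 and 10.71 in PTC (difference -1.45, SE 0.42). In both genes a single PTC, M_700, reached the BHL range. *Dio1*, the deiodinase that converts thyroxine to its active form, fell by 1.90 (SE 0.50, 9.17 ± 0.93 against 11.13 ± 0.37), *Duox2*, which supplies the peroxide for hormone synthesis, by 0.94 (SE 0.25), and the hormone receptor *Thrb* by 0.60. The thyrotropin receptor *Tshr* differed by -0.55 (SE 0.28, limma adjusted p = 0.1311). Among 9 partners of hormone synthesis measured, 5 passed the filter and 3 fell: the thyroid hormone and amino acid transporter *Slc16a10* (-0.99, SE 0.23), the potassium channel *Kcnj16* (-0.97, SE 0.29) and the anion exchanger *Slc26a7* (-0.92, SE 0.28). Without M_946 the count of these partners that fell was 4.

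**Figure D2:**
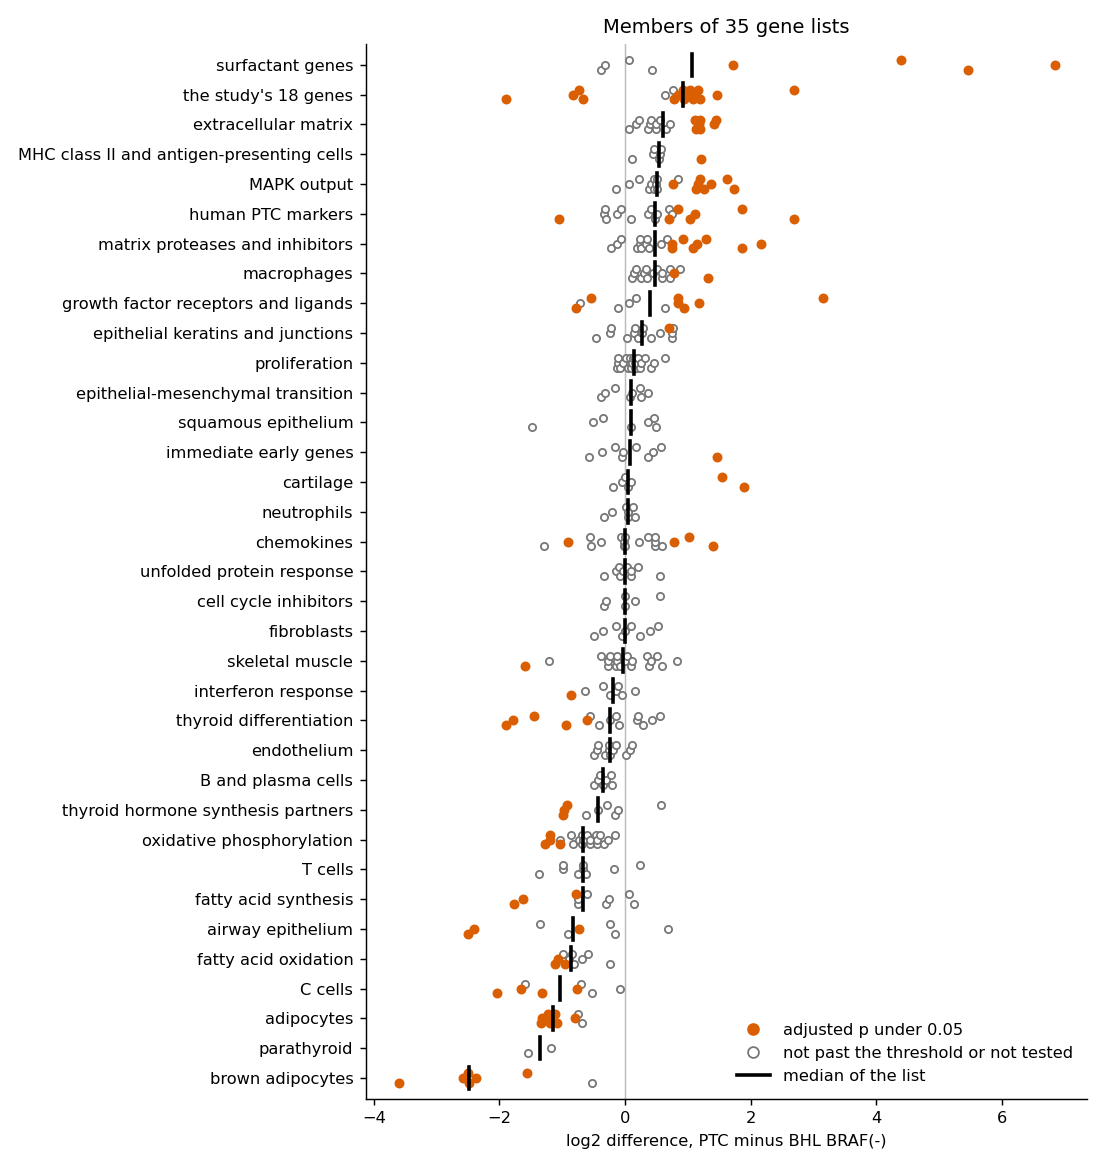
Log2 difference, PTC minus *BRAF*(-) BHL (x axis), of every measured member of 35 gene lists (rows, ordered by their median, black bar). Filled points passed an adjusted p of 0.05 and open points did not or were not tested. Surfactant, MAPK output and matrix genes lie to the right, and brown adipocyte (median -2.49), adipocyte (-1.14) and oxidative phosphorylation genes (-0.67) to the left.

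Most of the genes known from human PTC that were called were higher. Of 19 markers measured, 9 passed the filter, 6 rose and 1 fell. Without M_946 the count that rose was 5. The sodium-phosphate cotransporter *Slc34a2* read 5.68, 5.88, 5.96 and 6.95 in M_946, M_930, M_701 and M_764 and 6.66, 9.15 and 9.48 in PTC, so that only the lowest PTC fell within the BHL range (difference 2.68, SE 0.36). *Timp1*, a metalloproteinase inhibitor, rose by 1.86 (SE 0.43) and fibronectin (*Fn1*) by 1.11 (SE 0.27). The retinoid receptor *Rxrg* fell by 1.06 (SE 0.23). Of the study's 18 genes 16 passed the filter, 12 were higher and 4 lower. That list was chosen by the study on arrays that include these 4 BHL, so it is not independent evidence of its direction. Besides *Slc34a2* and *Fn1*, it includes *Pdlim4*, a PDZ and LIM domain protein (1.46, SE 0.26), and the ephrin receptor *Epha2* (1.19, SE 0.24).

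Extracellular matrix genes were on the higher side: all 18 measured had positive differences, with a median of 0.61, and of the 10 that passed the filter 7 rose and none fell. Thrombospondin 2 (*Thbs2*), a matricellular glycoprotein, read 6.46, 6.96, 7.48 and 7.54 in M_701, M_930, M_764 and M_946 and 7.67, 8.51 and 9.44 in PTC (difference 1.45, SE 0.33, limma adjusted p = 0.0009806). Versican (*Vcan*), a large proteoglycan, rose by 1.41 (SE 0.30) and did not overlap between the groups either. Periostin (*Postn*) and lysyl oxidase (*Lox*), which crosslinks collagen, rose by 1.20 and 1.19. With single mice left out, *Lox* did not keep its call in every fit (limma adjusted p of up to 0.079). The count of matrix genes that rose was then 6 to 10, and it was 5 by the exact rank-sum test. The fibrillar collagens *Col1a1*, *Col1a2* and *Col3a1* did not pass the threshold, with differences of 0.65, 0.56 and 0.49. Among 20 matrix proteases and inhibitors, 11 passed the filter, 8 rose and none fell. The macrophage elastase *Mmp12* rose by 2.16 (SE 0.44), stromelysin 1 (*Mmp3*) by 1.29, *Adamts1* by 1.15 and the urokinase receptor *Plaur* by 1.08. Without M_930 the count of proteases and inhibitors that rose was 5, and without M_946 it was 7. Of the fibroblast markers 3 were tested and none passed the threshold, although 1 did without M_1002, and 4 of the 9 measured had positive differences. The mean over them was 8.92 to 9.41 in BHL and 8.66 to 9.68 in PTC, and the part of fibroblast content in the matrix genes was not tested. Among 8 genes of epithelial-mesenchymal transition none passed the filter, and none passed the threshold without it. Cartilage genes gave 2 increases of 2 tested: *Col9a1*, which encodes a collagen IX chain, read 6.63, 6.86, 7.18 and 7.18 in BHL and 7.97, 8.67 and 9.04 in PTC (difference 1.55, SE 0.25). *Comp*, a cartilage matrix protein, differed by 1.89 (SE 0.58), with all 4 BHL between 5.09 and 5.22 and PTC spread from 5.21 to 8.59. The cartilage-defining genes *Col2a1* (-0.19) and *Acan* (0.09) were not tested.

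Macrophage markers were all on the higher side, but few passed the test. The 16 measured had differences of 0.11 to 1.32, and of 10 tested 2 rose, the Fc receptors *Fcgr2b* (1.32, SE 0.29) and *Fcgr3* (0.77, SE 0.27). Without M_946, which had the highest macrophage mean of the *BRAF*(-) BHL at 7.94, 6 of the 10 rose, as many as without PTC mouse M_1002, and the other 3 BHL lay at 6.62, 7.33 and 7.59 against a PTC range of 7.05 to 8.18. Without M_701 or M_930, in females alone and by the exact rank-sum test only 1 rose, and *Fcgr3* lost its call without either of these 2 mice. *Itgax*, the integrin CD11c of dendritic cells and some macrophages, rose by 1.21 (SE 0.35) but not without M_701, and 4 genes of this list rose without M_946 and M_1002, whereas the class II genes *H2-Ab1* and *Cd74* differed by 0.57 and 0.56 with limma adjusted p of 0.2254 and 0.1882. Of the chemokines, *Ccl6*, *Ccl9* and *Ccl7* rose by 1.40, 1.02 and 0.78 and *Cxcl12* fell by 0.91, out of 11 tested. *Ccl7* lost its call without M_930, and *Ccl9* without M_701 or M_930. None of 4 T cell and 3 B cell markers tested passed the threshold, and no neutrophil marker passed the filter. Without the filter 2 T cell markers were lower, *Cd8b1* (-1.36, SE 0.45) and *Cd3d* (-0.75, SE 0.25). T cell markers were far higher in M_946 than in the other mice: *Cd8b1*, the CD8 beta chain, read 10.19 in it against 5.24, 5.43 and 5.45 in the other BHL and 4.86 to 5.72 in PTC. The interferon-induced *Rsad2* fell by 0.87 (SE 0.32), the single call among 4 interferon response genes tested, and lost it when M_701, M_764, M_946 or any of 3 PTC was left out.

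The difference in proliferation genes depended on 1 comparator mouse. With all mice none of the 8 proliferation genes tested passed the threshold. *Mki67*, which marks cycling cells, read 4.85, 5.73 and 6.65 in M_701, M_930 and M_764, 8.25 in M_946 and 6.37, 7.12 and 7.44 in PTC (difference 0.63, SE 0.34, limma adjusted p = 0.158). The topoisomerase *Top2a* likewise read 4.76, 5.13 and 5.83 in those 3 mice, 8.18 in M_946 and 5.57, 6.36 and 6.93 in PTC. M_946, the mouse with thymocyte genes, thus exceeded every PTC in both. Without it all 8 genes rose: *Mki67* by 1.24 (SE 0.31, limma adjusted p = 0.00321), *Top2a* by 1.04 (SE 0.29), *Ccna2* by 0.92, *Cdk1* by 0.87, *Kif11* by 0.74, *Ccnb2* by 0.72, *Rrm2* by 0.71 and *Bub1* by 0.70. All 24 measured proliferation genes then had positive differences, with a median of 0.52, against 0.14 with M_946 included. Leaving out M_701, M_764 or M_930 in its place gave no call among the 8. The part of thymocyte RNA in the level of these genes in M_946 was not tested. Among cell cycle inhibitors none of 6 passed the filter, and without it 1 was higher, *Cdkn2b* by 0.55 (SE 0.14), and 2 were lower.

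**Figure D3:**
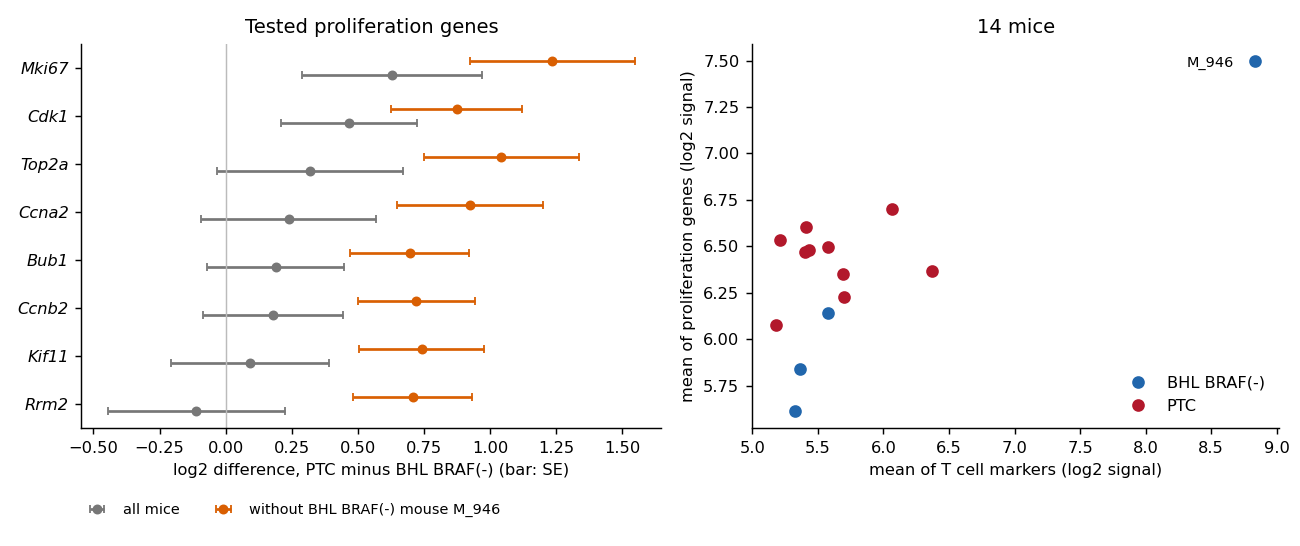
Left, log2 difference with SE (x axis) of the 8 tested proliferation genes with all mice (grey) and without *BRAF*(-) BHL mouse M_946 (orange). Right, mean of the proliferation genes (y axis) against the mean of the T cell markers (x axis) in the 14 mice, in log2 signal, where M_946 lies at 7.50 and 8.84, away from all other mice.

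Brown fat genes gave the greatest decreases. *Ucp1*, the uncoupling protein that generates heat in brown adipocytes, read 8.64, 10.38, 11.08 and 11.61 in M_764, M_946, M_930 and M_701 and 4.77, 6.41 and 9.51 in PTC, a difference of -3.60 (SE 0.98, limma adjusted p = 0.004618). *Cox7a1*, a cytochrome oxidase subunit of heart, muscle and brown fat, read 9.36, 9.68, 10.51 and 10.87 in M_764, M_946, M_701 and M_930 and 7.11, 7.70 and 8.38 in PTC, with no overlap (difference -2.37, SE 0.44). *Cox8b*, another such subunit, fell by 2.51 (SE 0.58), the lipid droplet protein *Cidea* by 2.49 and the elongase *Elovl3* by 2.59. All 6 brown adipocyte genes tested fell, as did 8 of 9 adipocyte genes, among them perilipin 1 (*Plin1*, -1.33), *Cidec* (-1.32), the fatty acid binding protein *Fabp4* (-1.22) and adiponectin (*Adipoq*, -1.19). The count of adipocyte genes that fell dropped to 4 without M_946 or M_930 and to 5 without M_701. It was 3 in females alone and 2 by the exact rank-sum test. The mean over the brown adipocyte genes lay at 8.28 to 10.04 in BHL and at 5.66 to 8.15 in PTC, and did not overlap. The part of fat tissue around the gland in these and the following results was not tested, and a model with tissue scores is given below.

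Genes of mitochondrial energy metabolism were lower as well. Of 21 oxidative phosphorylation genes measured all had negative differences (median -0.67), 4 passed the filter and all 4 fell, and 18 fell without it. *Ndufb8*, a complex I subunit, read 9.58, 9.64, 10.12 and 10.17 in M_946, M_764, M_701 and M_930 and 7.89, 8.59 and 9.15 in PTC (difference -1.28, SE 0.24, limma adjusted p = 0.0001274). *Ndufa1* of the same complex fell by 1.20, *Uqcrq* of complex III by 1.19 and *Cox5a* of complex IV by 1.04, and none of the 4 overlapped between the groups, which holds downwards for 7.52% of named genes and 3.62% of all probe sets tested. The list mean was 9.69 to 10.17 in BHL and 9.01 to 9.52 in PTC. Fatty acid oxidation went the same way, with 3 of 3 tested lower, the trifunctional protein subunit *Hadhb* (-1.12), *Acaa2* (-1.08) and *Hadh* (-0.96), and 9 of 10 lower without the filter. Of the fatty acid synthesis genes tested 3 of 4 fell: *Thrsp* (-1.78), *Acacb* (-1.62) and *Fasn*, fatty acid synthase (-0.78). Without M_930 only *Acacb* was called among these 3, and *Fasn* also lost its call without M_701.

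When the means of the skeletal muscle, adipocyte and brown adipocyte genes were added to the model, 377 probe sets differed, 339 higher and 38 lower. The skeletal muscle mean was alike in the groups (6.73 in PTC and 6.75 in *BRAF*(-) BHL), whereas the means of both fat lists differ between them. This fit thus also removes group differences that run parallel to the fat means. All 20 genes with the greatest increase passed the threshold in it, with *Sftpb* at 6.56 (SE 0.38). All 4 surfactant genes did so too, as did *Ereg* (2.18), *Slc34a2* (2.20), *Etv1* (1.15) and *Ccnd1* (1.09) among 3 MAPK output genes. Among the 20 genes with the greatest decrease only *Phospho1*, a phosphatase of mineralizing tissue (-1.03, SE 0.28), *Efhd1*, a calcium-binding mitochondrial protein (-1.24, SE 0.34), and *Lgi3* (-1.48, SE 0.42) did. No oxidative phosphorylation, fatty acid, thyroid differentiation, hormone synthesis, extracellular matrix, C cell, airway or fat gene passed the threshold in this model, although values such as -0.72 for *Ndufb8* (SE 0.27), -0.96 for *Slc5a5* (SE 0.53) and 0.99 for *Thbs2* (SE 0.41) kept their sign. Of the study's 18 genes 3 were higher and none lower in it, and of the human PTC markers *Slc34a2* alone was called. *Ucp1* turned to 0.62 (SE 0.36), being itself part of a score. The same holds for all adipocyte and brown adipocyte genes measured, so the lost calls of fat genes follow in part from the model itself.

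Other tissues near the thyroid were uneven. Secretory proteins of airway epithelium were lower in PTC: *Scgb1a1*, the club cell secretoglobin, read 7.52, 7.65, 8.71 and 8.83 in M_764, M_701, M_946 and M_930 and 4.42, 5.31 and 8.72 in PTC, the highest of which was M_686. *Scgb1a1* thus overlapped between the groups and fell by 2.41 (SE 0.72, limma adjusted p = 0.009348), and *Bpifa1*, an airway surface protein, by 2.50 (SE 0.93). Of 6 airway genes tested 3 fell, with 1 call without M_946 or M_700, none without M_930 and 4 without M_1002. The surfactant genes that were called and the airway genes that were called thus went in opposite directions, although both are known from the lung. Genes of C cells, the calcitonin cells of the thyroid, were lower too, with 4 of 5 tested: the secretogranins *Scg3* (-2.04) and *Scg2* (-1.66), *Grp*, which encodes gastrin-releasing peptide (-1.31), and the receptor *Ret* (-0.77). Without M_764 the count was 2, *Grp* and *Ret* having lost their calls, and *Ret* lost it without M_701, M_930 or M_1002 too. *Pth*, the parathyroid hormone gene, exceeded 10 in some mice of both groups and read 3.01 and 3.46 in M_701 and M_764 but 11.37 and 12.95 in M_930 and M_946. Its difference of -1.17 had an SE of 2.01. Of 19 skeletal muscle genes tested 1 fell, *Tmod1* (-1.60, SE 0.40), while *Myh1* read 9.45 in M_764 against 3.84 to 4.07 in the other BHL and 3.81 to 9.60 in PTC.

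**Figure D4:**
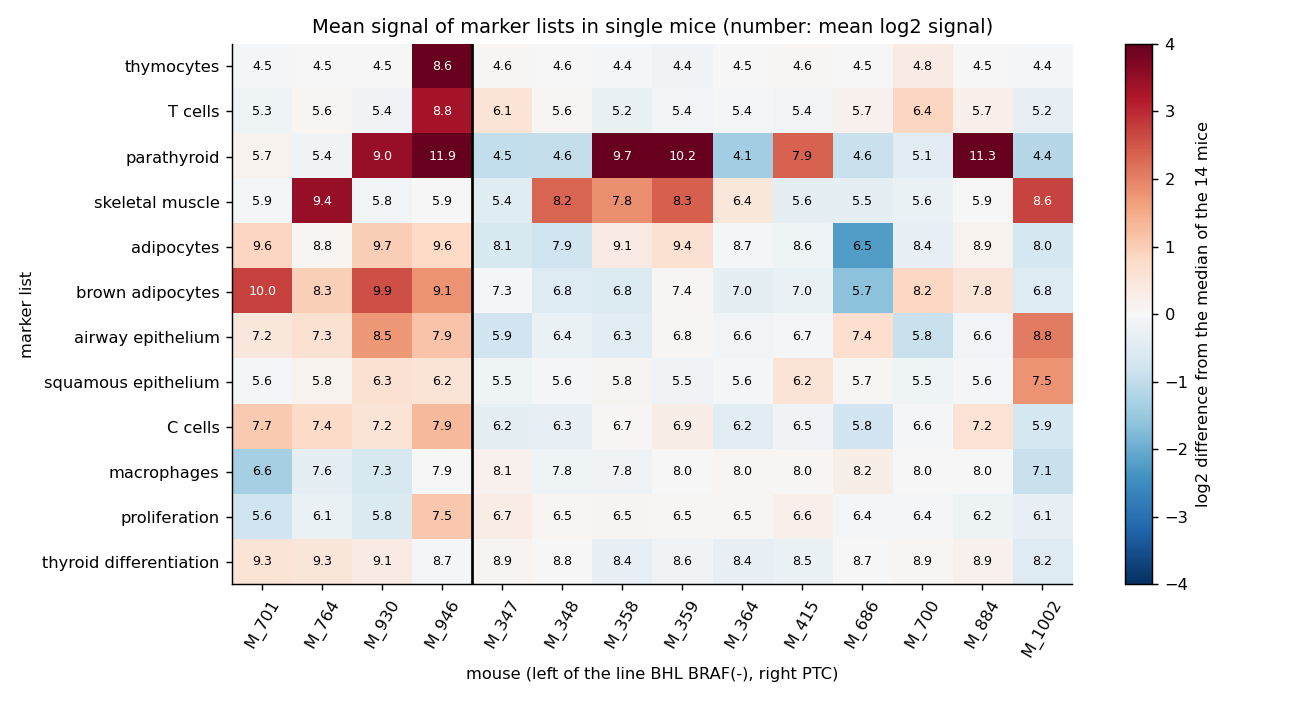
Mean log2 signal of the measured genes of 12 marker lists (rows) in each of the 14 mice (columns, *BRAF*(-) BHL left of the line and PTC right of it), coloured by the difference from the median of the 14 mice. Thymocyte and T cell genes stand out in M_946 (8.61 and 8.84), muscle genes in M_764 (9.39) and airway genes in M_1002 (8.81), and brown adipocyte genes are higher in all 4 BHL than in any PTC.

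The remaining genes of the 20 greatest decreases ran from -2.19 to -1.82 and covered several functions. *Inmt*, an indolethylamine methyltransferase, fell by 2.19 (SE 0.45) and the fatty acid binding protein *Fabp3* by 2.14 (SE 0.47). *Pck1*, a key enzyme of gluconeogenesis, fell by 1.99, the carbonic anhydrase *Car4* by 1.97, the fatty acid transporter *Slc27a2* by 1.90, and *Lrat*, which esterifies retinol, by 1.82. The potassium channel *Kcna1* fell by 1.84. *Cyp4a12b*, a cytochrome P450, fell by 2.07 (SE 0.58). In 7 of the 20 genes with the greatest decrease every PTC lay below every *BRAF*(-) BHL, whereas 19 of the 20 greatest increases were free of overlap. Both groups were spread widely in some of the decreasing genes. BHL ran from 5.88 to 8.24 in *Scg3* and from 5.10 to 8.41 in *Cyp4a12b*. PTC ran from 6.62 to 11.25 in *Bpifa1* and from 4.39 to 8.25 in *Cidea*. Leaving out each mouse in turn, 17 of the 20 passed the threshold in every fit, and *Bpifa1*, *Cyp4a12b* and *Scgb1a1* did not (limma adjusted p of up to 0.146, 0.105 and 0.0564).

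Both sides of the contrast were set against their nearest neighbours in the same model. No probe set differed between PTC and the 4 BHL with transgene RNA (0 of 4388, or 0%, by limma; 202 at an unadjusted p under 0.05; 0 by the exact rank-sum test), and the smallest adjusted p was 0.772. Over the 20 genes with the greatest increase, PTC minus *BRAF*(+) BHL ran from -0.28 to 0.71, with *Sftpb* at -0.08 (SE 0.29) and *Lcn2* at 0.71 (SE 0.40). Over the 20 with the greatest decrease it ran from -0.49 to 1.11, *Bpifa1* being the highest. A missing call does not show equality, and the standard errors of these genes give the size of difference that could be missed. *BRAF*(-) BHL and the 5 *BRAF*(-) AT did not differ in any probe set either (by limma 0 of 4388, or 0%, with 139 at an unadjusted p under 0.05 and a smallest adjusted p of 0.887). The exact rank-sum test gave 0 too. With 4 and 5 mice its smallest possible p hardly passes the adjustment, so this 0 adds little. Over the 20 greatest increases the difference, *BRAF*(-) BHL minus *BRAF*(-) AT, ran from -0.46 to 0.75 (median 0.07), and over the 20 greatest decreases from -0.21 to 1.30 (median 0.49).

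BHL with and without transgene RNA, which share the lesion label, differed in 1061 probe sets (24.2%), 592 higher and 469 lower in *BRAF*(+). Of the named genes 47.4% differed, 25.2% higher and 22.2% lower. This comparison uses the same 4 *BRAF*(-) BHL, so its values are given side by side and not as a second test. *Sftpb* rose by 6.92 in it and by 6.84 in PTC, *Chil1* by 5.89 and 6.00, *Lcn2* by 4.70 and 5.41, *Ereg* by 3.30 and 3.15, and *Ccnd1* by 1.72 and 1.73. The difference of *Dio1* was -2.93 in *BRAF*(+) BHL and -1.90 in PTC, that of *Grp* -2.78 and -1.31, and that of *Ucp1* -3.96 and -3.60. *Sftpb* had mean signals of 6.27 in *BRAF*(-) AT, 5.82 in *BRAF*(-) BHL, 11.61 in *BRAF*(+) AT, 12.74 in *BRAF*(+) BHL, 12.31 in borderline lesions and 12.66 in PTC. Both *BRAF*(-) groups thus lay far below the other 4.

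**Figure D5:**
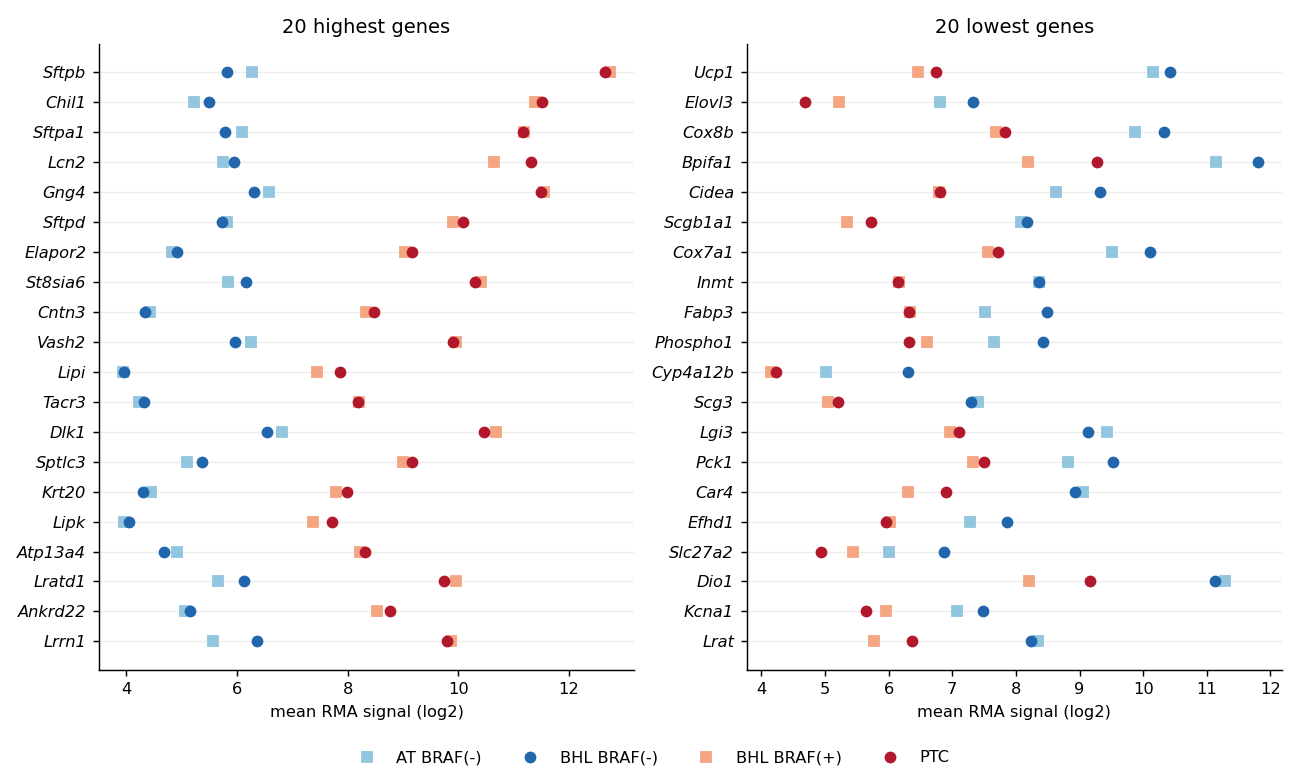
Mean log2 RMA signal (x axes) of the 20 genes with the greatest increase (left) and decrease (right) in PTC against *BRAF*(-) BHL, in 4 groups. PTC (10 mice) lie beside *BRAF*(+) BHL (4 mice), and *BRAF*(-) BHL (4 mice) beside *BRAF*(-) AT (5 mice).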

How the data were processed

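The thyroids of 38 mice were hybridised to GeneChip Mouse Gene 1.0 ST arrays, and the values deposited by the authors are log2 signals normalised by RMA, which corrects the background, brings the arrays to 1 distribution and summarises the probes of a set. The RMA version is not given in the sources used here. A single table held 35556 probe sets, and the number of columns from other series was 0. Platform annotation gave 1 symbol to 21789 probe sets, several to 1621, and did not list 12146. For the counts of named genes, the probe set with the highest mean was kept for each gene.

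Groups came from the lesion and *BRAF* labels. A linear model of 6 groups and sex was fitted with limma 3.58.1 in R 4.3.3, with moderated variances and Benjamini-Hochberg adjustment over 4388 probe sets past the flat filter. This filter follows the study and was taken over all 38 mice. Differences are log2, PTC minus *BRAF*(-) BHL, adjusted for sex, with their standard errors. Named were the 20 genes with the greatest increase and decrease among those called, a set of 13 fixed genes, of which 1 is not analysed here, and up to 4 genes of each of 35 lists, those past the threshold first and then by the size of their difference. Other list members are named as examples. The members and lists were chosen with earlier results of these data known. The lists held 420 genes, of which 399 were measured, 185 tested and 97 called. Mice were separate animals, and no depth applies to arrays, so that the number of mice limits the precision. Alternatives were no filter, other filters, centring, other variance models, an exact rank-sum test, age, females alone, array weights, tissue scores and each mouse left out. Mouse M_946 and the pairs M_946 with M_1002 and M_764 with M_946 were singled out after the data were seen, as were the thymocyte genes.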

Additional observations from a re-analysis of the deposited data

Results flagged for a closer look

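In 26 of 168 sets of values (a gene or a list mean in PTC or in *BRAF*(-) BHL), the highest or lowest mouse lay further from its nearest neighbour than Dixon's criterion allows. Chance alone flags about 1 in 20 such sets if they are independent. These sets are not, since some share genes, as the thymocyte and T cell lists share *Cd8a* and *Cd8b1*. The thymocyte genes were also added after M_946 was seen. The number of flags per mouse is therefore a description only: 6 each in PTC mice M_1002 and M_700, 5 in *BRAF*(-) BHL mouse M_946 and 4 in PTC mouse M_686.

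M_946 was apart in thymocyte genes (8.61, next mouse 4.55), T cell markers (8.84, next 5.58), the unfolded protein response (9.57, next 10.21), *Lrrn1* (10.13, next 5.32) and *Tshr* (9.18, next 9.97). M_764 had the highest muscle mean of its group (9.39, next 5.94) and the lowest *Pck1* (8.45, next 9.85), and M_701 the lowest fibroblast mean (8.92, next 9.36).

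Among PTC, M_1002 was highest for airway genes (8.81, next 7.40), squamous genes (7.46, next 6.19) and *Cyp4a12b* (6.57, next 4.98), and lowest for macrophages (7.05, next 7.77), chemokines (6.17, next 6.54) and genes of epithelial-mesenchymal transition (7.30, next 7.64). M_700, a male of 6 months, was lowest for MAPK output (7.86, next 8.23), *Vash2* (8.91, next 9.74) and *Nkx2-1* (9.32, next 9.95), and highest for *Scg3* (6.76, next 5.66), *Slc27a2* (6.27, next 5.15) and thymocyte genes (4.84, next 4.59). M_686 was lowest for adipocyte genes (6.50, next 7.94), fatty acid synthesis (9.09, next 10.02), *Cox8b* (5.11, next 7.60) and *Cidea* (4.39, next 6.33). M_347 had the highest interferon response (7.79, next 6.34) and M_884 the highest *Kcna1* (6.93, next 5.75). The causes were not tested.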

How the results depend on the processing

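The number of 1443 probe sets called, 498 of them lower, rose to 4087 without the flat filter (2142 and 1945, 52.4% higher against 65.5%) and dropped to 377 with muscle and fat scores in the model (339 and 38, 89.9% higher). These scores lower the count partly by construction, since the fat scores differ between the groups. The exact rank-sum test called 326 lower probe sets, and its smallest p with 10 and 4 mice is 0.002. Centring the arrays gave 1404 calls, 59.8% of them higher. With the scores 21 list members passed the threshold, against 97, and 38 named genes, against 99, including *Ccr2*, which is not among the 99. With each mouse left out in turn, the calls ran from 1004 (without M_930) to 1454, the higher ones from 648 to 993, the lower ones from 356 to 513, the list members from 76 to 105 and the named genes from 84 to 104. The other comparisons reported as 0 calls gave 0 under every alternative run, although the rank-sum test of *BRAF*(-) BHL against *BRAF*(-) AT has too few mice to give many other outcomes. With the scores the sign turned in *Ucp1* (0.62), *Elovl3* (0.17), *Cidea* (0.13), *Cidec* (0.0441), *Fabp4* (0.00672), *Adipoq* (0.11), *Thrsp* (0.49), *Fasn* (0.0866), *Rsad2* (0.016), *Ifit3* (0.38), *Cd79a* (0.0697) and *Pth* (0.61). Of these, *Ucp1*, *Elovl3*, *Cidea*, *Cidec*, *Fabp4* and *Adipoq* are themselves members of the fat scores. *Pth* also turned with array weights (0.55), and without M_946 and M_1002 (0.90), and ran from -2.73 to 0.50 (without M_946) when single mice were left out. With single mice left out, *Top2a* ran from -0.0378 (without M_701) to 1.04, *Creld2* from -0.43 to 0.0883 (without M_764) and *Cd3g* from -1.66 to 0.20 (without M_946). *Top2a* also turned in females (-0.11), and *Cd3g* without M_946 and M_1002 (0.29) and without M_764 and M_946 (0.47). Without M_946 and M_1002, *Myh1* was -0.0882 and *Neb* -0.23, and without M_764 and M_946 *Cd79a* was 0.0386. The causes were not tested. No paired analysis was possible because the groups share no mouse numbers. The 4 *BRAF*(-) BHL, a single piece of each gland and the flat filter limit what these arrays can show.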
